A study of Rattus norvegicus with 6 samples.

Results

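Marker genes of the loop of Henle were followed through 5 d of vasopressin V2 receptor stimulation and its withdrawal in the rat kidney inner medulla. The 7 genes were Umod, Egf, Slc12a1, Tmem72, Cldn16, Cldn10 and Cldn19, taken as a fixed list of symbols and read from the probe set that carried each symbol alone. All 7 were found among the 14168 genes with a symbol of their own, each with 1 probe set, and none was removed by a filter. Total RNA of male Sprague-Dawley rats, which weighed 200 to 250 g and had a fixed ration and free access to water, was hybridised to Affymetrix whole-transcript arrays. There were 6 arrays, with 2 in each of 3 groups. In the withdrawal group dDAVP (desmopressin, an agonist selective for the V2 receptor) was given at 40 ng/h for 5 d from a minipump under the skin of the neck, the pump was taken out under light enflurane anaesthesia, and 3 h passed before collection. The dDAVP group had the same 40 ng/h for 5 d. The vehicle group had saline at 1 µl/h for 5 d from the same kind of pump. As pump removal and anaesthesia came with the end of the infusion, these cannot be told apart. Whether the pair of arrays in a group came from separate animals is not stated, so every p-value measures the spread between these arrays, and their number limits the precision.

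The loop of Henle carries filtrate down into the medulla and back. Its thick ascending limb takes up sodium, potassium and chloride without water, which builds the osmotic gradient that the collecting duct uses to concentrate urine, and the positive voltage it creates in the lumen drives calcium and magnesium between the cells through claudin pores. The thick limb lies in the outer medulla and cortex, whereas the limbs that enter the inner medulla are thin. Vasopressin acts through the V2 receptor and cyclic AMP on both the rat thick limb and the collecting duct. Of the 7 genes, Slc12a1 encodes the sodium-potassium-chloride cotransporter NKCC2 of the thick limb. Cldn10, Cldn16 and Cldn19 encode tight junction proteins, Cldn16 and Cldn19 of the thick limb and Cldn10 also of other tubule segments. Umod encodes uromodulin, the most abundant protein of normal urine. Egf encodes the precursor of epidermal growth factor, made by the thick limb and the distal convoluted tubule, and Tmem72 a membrane protein whose role is not well known. The label of the list therefore describes the thick limb more than the thin limbs found in the inner medulla proper, and in bulk tissue fewer cells of a type and less RNA per cell cannot be told apart.

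The arrays did not pair by treatment. The spread of the log2 difference over all genes (its SD) was 0.223, 0.303 and 0.273 between the 2 arrays of the withdrawal, dDAVP and vehicle groups. It was 0.16 between withdrawal replicate 1 and vehicle replicate 2 and 0.194 between dDAVP replicate 2 and vehicle replicate 1, both below every within-group value, as were 2 further pairs, vehicle replicate 2 with dDAVP replicate 1 (0.208) and with withdrawal replicate 2 (0.22). Vehicle replicate 1 and dDAVP replicate 2 were left out together as an alternative for each comparison. Whether the labels of any arrays were exchanged cannot be told from the files. Every group difference below, and every value of dDAVP replicate 2, is therefore that of the arrays as labelled. Median intensities were 156 to 182, and the median gene differed by -0.11 log2 for dDAVP minus vehicle, 0.14 for withdrawal minus dDAVP and 0.03 for withdrawal minus vehicle.

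Umod, Egf and Slc12a1 spread most among the 7 genes, and the spread lay between arrays of the same group. The range over the 6 arrays reached at least 1 log2 in these 3 genes, a range that 3.4% of all genes reached. Umod had log2 intensities of 10.50 and 9.80 after withdrawal, 10.02 and 11.18 under dDAVP, and 9.98 and 10.03 with vehicle. The highest value was that of dDAVP replicate 2, and dDAVP replicate 1 lay between the 2 vehicle arrays. Egf had 8.96 and 8.58 after withdrawal, 8.64 and 10.34 under dDAVP, and 9.27 and 9.0 with vehicle. The 2 dDAVP arrays were thus on opposite sides of both vehicle arrays, 1.70 log2 apart, and both withdrawal arrays were below both vehicle arrays. In Egf the highest array was 3.38-fold above the lowest, the widest span of the 7, and 99.5% of all genes had a narrower one.

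Slc12a1 was ordered differently. Its log2 intensities were 10.69 and 9.63 after withdrawal, 10.11 and 10.52 under dDAVP, and 9.46 and 10.61 with vehicle. The arrays of all 3 groups overlapped, with the lowest value in vehicle replicate 1 and the highest in withdrawal replicate 1. The withdrawal arrays were 1.05 log2 apart and the vehicle arrays 1.15, against a range of 0.28 between the 3 group means. Linear intensities of this cotransporter gene were 1647 and 795 after withdrawal, 1103 and 1467 under dDAVP, and 704 and 1563 with vehicle.

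Tmem72 was the 1 gene of the 7 in which both dDAVP arrays were below the other 4, as they were in 33.6% of all genes. After cyclic loess this held for 0 of the 7 and for 8.21% of all genes. It had log2 intensities of 7.34 and 6.98 after withdrawal, 6.67 and 6.92 under dDAVP, and 7.21 and 7.10 with vehicle. Array medians over all probe sets were 7.29 to 7.51. Signal over background is unknown for this dim gene, since no detection call was used.

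The claudins varied less than Umod, Egf and Slc12a1. Cldn16 had 9.20 and 9.35 after withdrawal, 9.01 and 9.69 under dDAVP, and 9.29 and 9.37 with vehicle. Cldn19, which forms a cation pore together with Cldn16, had 10.30 and 10.24 after withdrawal, 10.16 and 10.68 under dDAVP, and 10.60 and 10.38 with vehicle. In both genes the 4 withdrawal and vehicle values lay between the 2 dDAVP values. Cldn10 had 11.86 and 11.86 after withdrawal, 11.83 and 12.02 under dDAVP, and 11.96 and 11.96 with vehicle. Its range of 0.18 log2 was the narrowest of the 7, and 5.7% of all genes had a narrower one. Whether this probe set reads 1 or several of the transcripts that start at different first exons of Cldn10 was not tested.

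**Figure D1:**
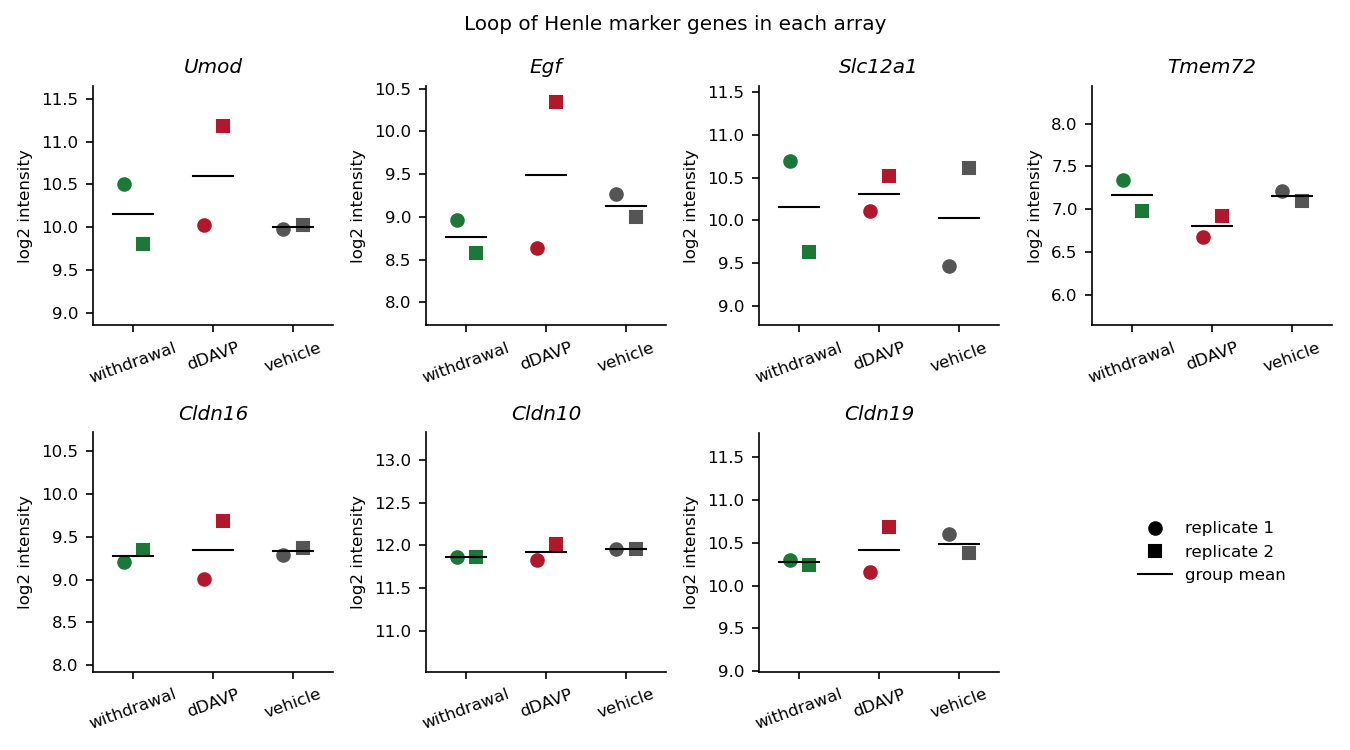
Log2 intensity (vertical axis, each panel spanning the same 2.8 log2 around the gene's mean) of each gene in the withdrawal, dDAVP and vehicle groups, with a circle for replicate 1, a square for replicate 2 and a line for the group mean of 2 arrays. The 2 dDAVP arrays stand far apart in Umod (10.02 and 11.18) and Egf (8.64 and 10.34), the withdrawal and vehicle arrays stand far apart in Slc12a1, and Cldn10 is level.

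Among the 7 genes 5 had their highest value in dDAVP replicate 2. The genes were chosen with earlier results of these arrays known, and the array was singled out from the same values, so these counts are a description. The 5 genes were Umod, Egf, Cldn16, Cldn10 and Cldn19, whereas this array was the highest in 10.1% of all genes, and in 18.3% after cyclic loess normalization, where the same 5 of 7 had it highest. It exceeded dDAVP replicate 1 in 7 of 7 genes, against 61.1% of all genes. In Egf, Cldn16, Cldn10 and Cldn19 dDAVP replicate 1 lay below both vehicle arrays and dDAVP replicate 2 above both, a pattern of 8.17% of all genes, and of 9.49% after loess, where the same 4 genes had it. The median deviation of the 7 genes from their own means over the 6 arrays was -0.05 and -0.16 log2 after withdrawal, -0.24 and 0.35 under dDAVP, and 0.05 and 0.04 with vehicle. In 6 of 7 genes the gap between the 2 dDAVP arrays was wider than the range of the 3 group means, against 36.3% of all genes, with Tmem72 as the exception. The array that was lowest differed more among the genes. It was dDAVP replicate 1 in Tmem72, Cldn16, Cldn10 and Cldn19, against 45.3% of all genes, withdrawal replicate 2 in Umod and Egf, against 10.8%, and vehicle replicate 1 in Slc12a1, against 11.2%. Slc12a1 and Tmem72 were highest in withdrawal replicate 1, against 17.3%.

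**Figure D2:**
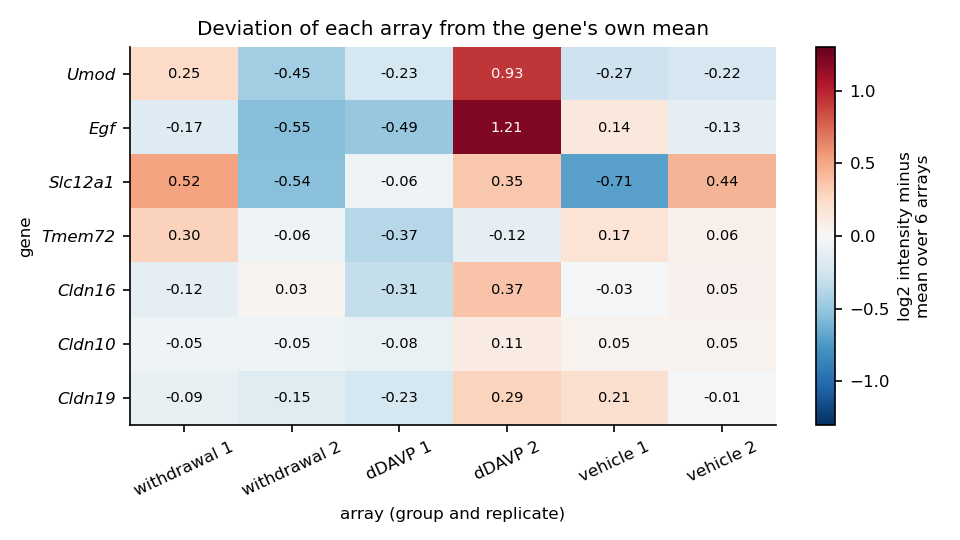
Log2 intensity of each gene (rows) in each array (columns) minus the gene's mean over the 6 arrays, with red above and blue below that mean. The column of dDAVP replicate 2 is red in 6 of the 7 genes, with 1.21 in Egf and 0.93 in Umod, whereas Slc12a1 is lowest in vehicle replicate 1 at -0.71.

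On GRCr8 the genes lie at chr1:183247676-183261665 (Umod), chr2:220893660-220976331 (Egf), chr3:132859581-132936354 (Slc12a1), chr4:151620696-151645989 (Tmem72), chr11:87795106-87814396 (Cldn16), chr15:102269858-102361589 (Cldn10) and chr5:138148234-138155672 (Cldn19). Promoter windows of 250 bases before each start in the RefSeq table (build GRCr8) were matched for all 7 genes and searched on both strands for 3 motifs. These were TATAAA, the TATA box, TGACG, a half-site of the cyclic AMP response element, and AAGGTCA, bound by oestrogen-related receptors. They occur in 12.9%, 18.2% and 3.99% of the 33469 windows of the table, and no matches overlapped in these genes. TATAAA was found 2 times in Umod, at -219 and at -173 from the start, and TGACG and AAGGTCA in 0 of the 7 genes. A match is a description of these letters and not of binding. The sequences are shown for Egf and Slc12a1, which varied widely between arrays, for Tmem72, which was lowest in both dDAVP arrays, and for Cldn10, which had the narrowest range. None of these 4 windows held a motif, so no letter is in capitals. The whole windows had a GC content of 51.6% in Egf, 43.6% in Slc12a1, 56.4% in Tmem72 and 38.0% in Cldn10, beside a median of 51.2% over the table. Bases inside the annotated gene are left off, and the whole windows of Umod and Cldn19 lie inside it and are not printed. Of the 2 starts listed for Slc12a1 the outer one is shown.
Egf, chr2:220976332-220976547, minus strand: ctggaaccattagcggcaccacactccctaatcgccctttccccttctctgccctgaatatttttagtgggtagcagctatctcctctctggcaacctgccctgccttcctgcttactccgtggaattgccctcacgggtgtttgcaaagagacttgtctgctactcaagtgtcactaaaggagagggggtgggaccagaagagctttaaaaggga
Slc12a1, chr3:132859340-132859580, plus strand: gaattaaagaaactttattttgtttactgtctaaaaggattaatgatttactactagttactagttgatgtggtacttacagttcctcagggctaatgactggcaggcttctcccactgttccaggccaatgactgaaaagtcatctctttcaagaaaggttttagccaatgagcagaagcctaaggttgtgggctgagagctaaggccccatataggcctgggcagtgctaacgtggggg
Tmem72, chr4:151645990-151646239, minus strand: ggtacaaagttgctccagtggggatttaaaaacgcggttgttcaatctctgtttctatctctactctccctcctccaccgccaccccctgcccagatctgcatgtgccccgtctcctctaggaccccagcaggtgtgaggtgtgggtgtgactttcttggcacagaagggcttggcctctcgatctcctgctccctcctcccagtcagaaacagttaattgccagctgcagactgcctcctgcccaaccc
Cldn10, chr15:102269608-102269857, plus strand: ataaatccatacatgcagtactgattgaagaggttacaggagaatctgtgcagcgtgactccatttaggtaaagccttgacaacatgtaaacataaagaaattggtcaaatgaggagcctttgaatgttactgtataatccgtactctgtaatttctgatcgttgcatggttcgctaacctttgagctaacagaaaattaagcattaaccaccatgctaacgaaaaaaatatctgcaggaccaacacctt

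The first comparison, dDAVP minus vehicle, set 5 d of V2 stimulation against saline. Umod averaged 10.60 ± 0.83 in dDAVP and 10.00 ± 0.04 in vehicle (SD, n = 2 each), a difference of 0.60 ± 0.40 log2 (SE, with a 95% interval from -0.36 to 1.56 and an adjusted p of 0.563 by limma). Egf differed by 0.36 ± 0.51 (interval -0.88 to 1.59) and Slc12a1 by 0.28 ± 0.47 (-0.85 to 1.41). Tmem72 averaged 6.80 ± 0.18 in dDAVP and 7.15 ± 0.07 in vehicle, a difference of -0.36 ± 0.15 (interval -0.73 to 0.02, adjusted p = 0.549 by limma). After cyclic loess the Tmem72 difference was -0.19. Cldn16, Cldn10 and Cldn19 differed by 0.02, -0.03 and -0.07, with intervals of -0.51 to 0.55, -0.28 to 0.21 and -0.51 to 0.37.

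None of the 7 genes passed an adjusted p of 0.05 in limma, and 0.0% of all genes did, with 0 of the 7 and 7.43% of all genes (1052 of 14168) at an unadjusted p under 0.05. The arrays of the 2 groups did not overlap in 1 of 7 genes, Tmem72, against 45.4% of all genes, and it was lower under dDAVP, as were 40.6%. The median difference of the 7 genes was 0.02, beside -0.11 for all genes, and 0.06 beside 0.00 after loess. With 1 array left out the sign turned in Egf, Slc12a1, Cldn16, Cldn10 and Cldn19, but not in Umod or Tmem72. Without dDAVP replicate 2 the differences of Umod and Egf were 0.01 and -0.50, and without dDAVP replicate 1 they were 1.18 and 1.21. The difference of Slc12a1 was -0.30 without vehicle replicate 1 and 0.85 without vehicle replicate 2, and that of Tmem72 stayed between -0.48 and -0.23 with any 1 array left out.

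The second comparison, withdrawal minus dDAVP, asked what differed 3 h after the pump was removed, and shares its dDAVP arrays with the comparison above. Umod averaged 10.15 ± 0.49 in withdrawal and 10.60 ± 0.83 under dDAVP (SD, n = 2 each). They differed by -0.45 ± 0.40 (interval -1.41 to 0.51). Egf averaged 8.77 ± 0.26 in withdrawal and 9.49 ± 1.20 in dDAVP, a difference of -0.72 ± 0.51 (interval -1.95 to 0.51, adjusted p = 0.410 by limma). Without dDAVP replicate 2 these 2 differences were 0.13 and 0.13, and without dDAVP replicate 1 they were -1.03 and -1.57. Slc12a1 differed by -0.15 ± 0.47 (interval -1.28 to 0.98). Tmem72 averaged 7.16 ± 0.25 in withdrawal and 6.80 ± 0.18 in dDAVP, a difference of 0.36 ± 0.15 (interval -0.01 to 0.74, adjusted p = 0.265 by limma), or 0.16 after loess. Cldn16, Cldn10 and Cldn19 differed by -0.08, -0.06 and -0.15, and the intervals ended at -0.60 and 0.45, at -0.30 and 0.18, and at -0.60 and 0.29. None of the 7 genes passed in limma, and 0.0% of all genes did, with 0 of the 7 and 19.0% of all genes (2686) at an unadjusted p under 0.05. The arrays did not overlap in 1 of 7 genes, Tmem72, against 57.6% of all genes, and it was higher after withdrawal, as were 49.6%. The median difference of the 7 genes was -0.15, beside 0.14 for all genes, and -0.17 beside 0.00 after loess.

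The third comparison, withdrawal minus vehicle, set the rats 3 h after removal against rats that never had dDAVP. Egf averaged 8.77 ± 0.26 in withdrawal and 9.13 ± 0.19 in vehicle (SD, n = 2 each), a difference of -0.36 ± 0.51 (interval -1.60 to 0.87, adjusted p = 0.995 by limma). Cldn19 averaged 10.27 ± 0.05 in withdrawal and 10.49 ± 0.16 in vehicle, a difference of -0.22 ± 0.18 (interval -0.67 to 0.22). Cldn10 differed by -0.10 ± 0.10 (interval -0.34 to 0.14). These 3 genes were the ones whose arrays did not overlap, lower in withdrawal each time, against 30.7% of all genes that did not overlap in either direction and 13.1% that were lower so. Umod, Slc12a1, Tmem72 and Cldn16 differed by 0.15, 0.13, 0.01 and -0.06, and the interval of Slc12a1 ran from -1.0 to 1.26. None of the 7 genes passed in limma, and 0.0% of all genes did, with 0 of the 7 and 1.79% of all genes (253) at an unadjusted p under 0.05.

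**Figure D3:**
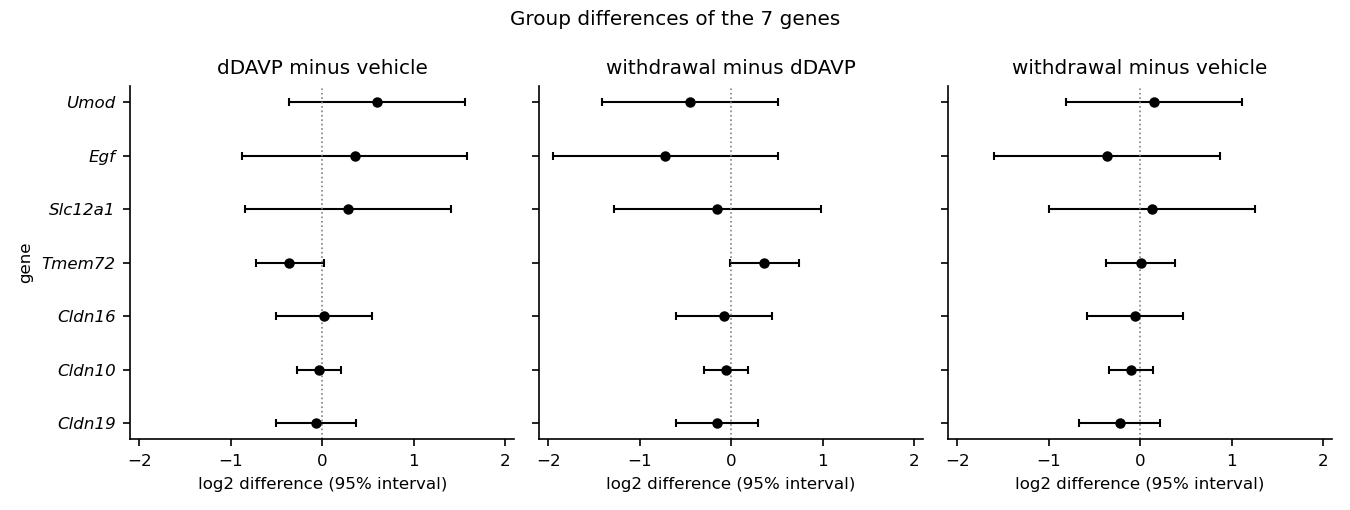
Log2 difference between group means (points) with its 95% interval from limma (bars) for each gene in the 3 comparisons, with 2 arrays in each group. Every interval includes 0, and the intervals of Umod, Egf and Slc12a1 are the widest, such as -0.88 to 1.59 for Egf in dDAVP minus vehicle.

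Genes most like Umod, Egf and Slc12a1 over the 6 arrays were named by the root mean square difference between profiles, each centred on its own mean. Closest to Umod were Gpr176, an orphan receptor (0.17 log2), Atp6v1c2, a proton pump subunit (0.20), Cpt1a, which brings fatty acids into mitochondria (0.23), Stc2, a stanniocalcin (0.24), and Kcnj13, a potassium channel (0.24). Closest to Egf were Cyb5r2, a cytochrome b5 reductase (0.18), Plcd4, a phospholipase C (0.24), Ly6i (0.24), Mgarp, a mitochondrial protein (0.24), and Ndrg2 (0.27). Closest to Slc12a1 were Car12, a membrane carbonic anhydrase (0.17), Slc16a7, a monocarboxylate transporter (0.18), Atp6v0a4, a proton pump subunit of intercalated cells (0.18), Dmrt2, a transcription factor (0.20), and Stap1, an adaptor (0.21). The median distance of all other genes was 0.51 from Umod, 0.62 from Egf and 0.52 from Slc12a1. A gene with no change at all over the 6 arrays would lie 0.47 from Umod, 0.59 from Egf and 0.48 from Slc12a1. Egf lay 0.29 from Umod. Slc12a1 lay 0.43 from Umod, as did the nearly level Cldn10, and 0.64 from Egf, farther than a level gene. These distances rest on 6 arrays and describe them only.

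**Figure D4:**
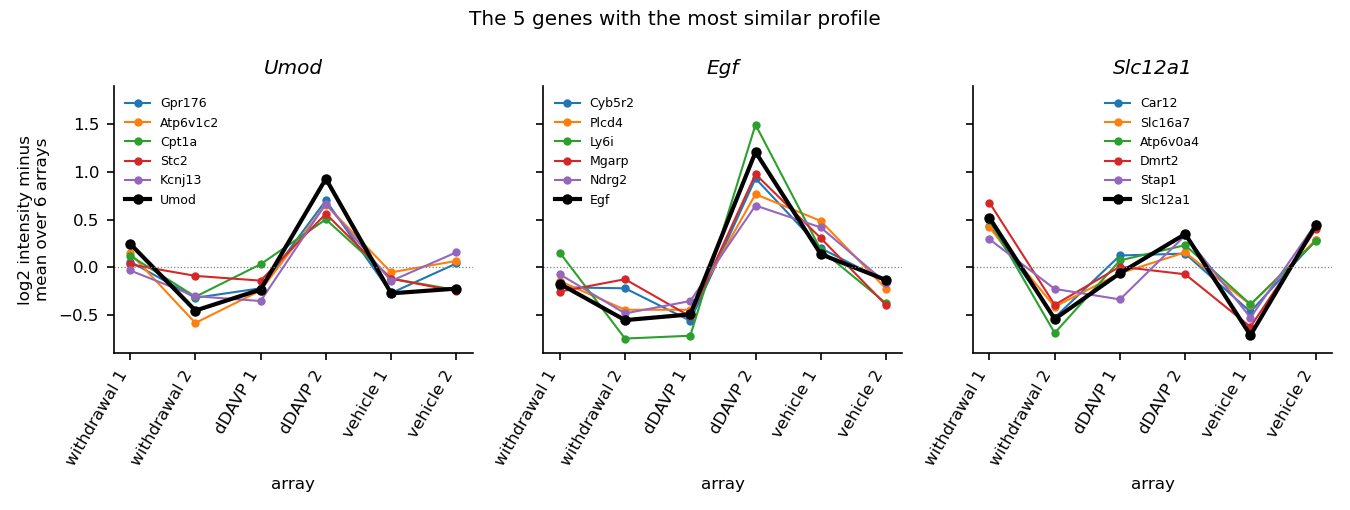
Log2 intensity minus the mean over the 6 arrays (vertical axis) in each array (horizontal axis) for Umod, Egf and Slc12a1 (black) and the 5 genes with the most similar profile (colours). The genes like Umod and Egf peak in dDAVP replicate 2, whereas those like Slc12a1 are low in vehicle replicate 1 and withdrawal replicate 2.

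The transporters that work beside Slc12a1 in the thick limb did not share 1 profile. Of 14 listed partners 11 were measured, 0 passed in any comparison, and their median differences were -0.04 for dDAVP minus vehicle, 0.06 for withdrawal minus dDAVP and 0.01 for withdrawal minus vehicle. Kcnj1, the ROMK channel that returns potassium to the lumen, had log2 intensities of 10.45 and 10.09 after withdrawal, 10.19 and 9.81 under dDAVP, and 9.11 and 10.44 with vehicle. Like Slc12a1 it was lowest in vehicle replicate 1. Bsnd, the barttin subunit of the basolateral chloride channels, had linear intensities of 1669 and 1573 after withdrawal, 2173 and 2002 under dDAVP, and 1971 and 2052 with vehicle. Both withdrawal arrays of Bsnd lay below the other 4, with log2 differences of -0.36 ± 0.10 against dDAVP (adjusted p = 0.260 by limma) and -0.31 ± 0.10 against vehicle (adjusted p = 0.995). Among all genes 13.1% had both withdrawal arrays below both vehicle arrays. The withdrawal and dDAVP arrays did not overlap in 57.6%, but 49.6% had withdrawal higher, the opposite of Bsnd. The share with both withdrawal arrays below the other 4 is not given. Atp1b1, a subunit of the sodium pump, and Fxyd2, its regulator, each ranged by 0.13 log2 over the 6 arrays.

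Signalling genes upstream of Slc12a1 were measured for 15 of 16 listed, and 0 passed. Avpr2, the V2 receptor, had log2 intensities of 11.45 and 11.04 after withdrawal, 11.63 and 11.71 under dDAVP, and 11.59 and 11.32 with vehicle, with no overlap of the dDAVP arrays with the other 4. The dDAVP arrays did not overlap the vehicle arrays in 45.4% of all genes, but 40.6% had dDAVP lower, the opposite of Avpr2. They did not overlap the withdrawal arrays in 57.6%, but 49.6% had withdrawal higher, again the opposite. The share with both dDAVP arrays above the other 4 is not given. Avpr2 is also listed among the collecting duct markers, and from which cells its signal came was not tested. Prkacb, a catalytic subunit of protein kinase A, had 9.17 and 8.89 after withdrawal, 9.58 and 9.44 under dDAVP, and 9.32 and 9.30 with vehicle, and differed by -0.48 ± 0.12 for withdrawal minus dDAVP (adjusted p = 0.260 by limma). Adcy6, an adenylyl cyclase, was lower in both withdrawal arrays (8.77 and 8.56) than in the dDAVP arrays (8.89 and 8.96) or the vehicle arrays (8.94 and 8.91). In Prkacb and Adcy6 both withdrawal arrays lay below both vehicle arrays, as in 13.1% of all genes. Both genes were also lower after withdrawal than under dDAVP without overlap. There 57.6% of all genes did not overlap in either direction, but 49.6% were higher after withdrawal, the opposite of these genes. Stk39, the SPAK kinase that phosphorylates the cotransporter, ranged by 0.09 log2 and Oxsr1, its relative, by 0.19. Among the 3 comparisons the median differences of the 15 genes were 0.01, 0.02 and -0.01.

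Genes of divalent cation handling in the thick limb were measured for 10 of 14 listed, with 0 passing. Cldn14, a claudin that blocks the pore of Cldn16 and Cldn19, had 6.36 and 6.38 after withdrawal, 6.10 and 6.01 under dDAVP, and 6.30 and 6.26 with vehicle. Both dDAVP arrays were lowest in this dim gene, as in 33.6% of all genes. After cyclic loess 8.21% of all genes had this order, and whether Cldn14 itself kept it is not given. Its differences were -0.23 ± 0.09 for dDAVP minus vehicle and 0.31 ± 0.09 for withdrawal minus dDAVP (adjusted p = 0.549 and 0.260 by limma). Casr, the calcium-sensing receptor, ranged from 6.81 to 7.29. Pth1r, the parathyroid hormone receptor, had 8.66 and 8.19 after withdrawal, 8.10 and 9.10 under dDAVP, and 9.25 and 8.27 with vehicle, and was highest in vehicle replicate 1 and dDAVP replicate 2. Rragd, a regulator of mTORC1 signalling, was highest in dDAVP replicate 2 at 9.07, as 5 of the 7 marker genes were.

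Transcription factors of the thick limb, of which 11 of 12 listed were measured, gave 0 calls. Pou3f3 had 9.17 and 9.13 after withdrawal, 8.89 and 8.90 under dDAVP, and 9.22 and 9.13 with vehicle, so that both dDAVP arrays were lowest (-0.28 ± 0.09 for dDAVP minus vehicle, adjusted p = 0.549 by limma). This held in 33.6% of all genes, and in 8.21% after cyclic loess. Whether Pou3f3 itself kept this order after loess is not given. Irx2 had 8.84 and 8.90 after withdrawal, 8.45 and 8.50 under dDAVP, and 8.59 and 8.74 with vehicle. Neither order was that of Umod or Slc12a1. Processing and receptor genes for Umod and Egf were measured for 12 of 15 listed, with 0 passing. Hpn, the protease hepsin that releases uromodulin, ranged from 8.06 to 8.36, and Egfr, the receptor for epidermal growth factor, from 7.83 to 8.44. Areg, another ligand of Egfr, had 7.81 and 8.34 after withdrawal, 7.56 and 7.44 under dDAVP, and 7.62 and 7.69 with vehicle, a difference of 0.57 ± 0.18 for withdrawal minus dDAVP (adjusted p = 0.260 by limma). Egf differed there by -0.72, but by 0.13 without dDAVP replicate 2.

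The other claudins were measured for 17 of 20 listed, and 0 passed, with medians of -0.01, 0.06 and 0.06 in the 3 comparisons in the order above. Cldn4 and Cldn8, both of the collecting duct, ranged by 0.75 and 0.25 log2. Cldn5, a claudin of endothelium, had linear intensities of 1517 and 755 after withdrawal, 1051 and 1925 under dDAVP, and 2048 and 1092 with vehicle, the widest range of the family at 1.44 log2. Scaffold proteins of the tight junction were measured for 9 of 12 listed, with 0 passing. Tjp1 ranged from 8.33 to 8.84.

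Markers of other segments also differed between arrays, and their part in the results was not tested. Intercalated cell markers (9 of 10 measured) had median deviations of 0.36 and -0.32 log2 after withdrawal, -0.12 and -0.04 under dDAVP, and -0.46 and 0.14 with vehicle, low in the same 2 arrays as Slc12a1. Slc4a1, the anion exchanger of these cells, had 10.25 and 8.65 after withdrawal, 10.59 and 9.58 under dDAVP, and 8.43 and 10.24 with vehicle. Proximal tubule markers (14 of 15 measured) had median deviations of 0.01 and 0.02 after withdrawal, -0.19 and -0.01 under dDAVP, and 0.13 and 0.02 with vehicle. Among them Slc7a13, a transporter of the straight segment that lies in the outer medulla, had 9.66 and 9.19 after withdrawal, 9.48 and 10.75 under dDAVP, and 10.69 and 10.15 with vehicle. Of the 14 markers 4 were highest in dDAVP replicate 2, Slc7a13 among them, against 10.1% of all genes. A further 6 were highest in vehicle replicate 1, for which no share of all genes is given. The mean log2 intensity of the 14 markers was 7.27 to 7.66 in the 6 arrays, beside array medians of 7.29 to 7.51.

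Thin limb markers (9 of 12 measured) had median deviations between -0.03 and 0.11 log2 in the 6 arrays, but single markers differed in both directions. Their ranges ran from 0.18 in Akr1b1, aldose reductase, to 1.23 in Fst, follistatin. Bst1 ranged by 0.95, and Slc14a2 and Cldn4 by 0.75 each. Of all genes 98.2% had a narrower range than Fst, 96.1% than Bst1, and 91.8% than Slc14a2 or Cldn4. Slc14a2 is also listed among the collecting duct markers, and Cldn4 is also of the collecting duct. From which cells their signal came was not tested. Distal convoluted tubule markers (5 of 8) ran from -0.16 to 0.14. Both dDAVP arrays were lowest there, at -0.12 and -0.16, beside -0.12 and -0.07 for all genes. The median difference of these markers for dDAVP minus vehicle was -0.02 after loess. The defining gene Slc12a3 of that segment was dim, at 6.43 to 6.76, as were Pvalb and Calb1. Collecting duct markers (9 of 10) ran from -0.04 to 0.19, and endothelial markers (8 of 10) from -0.27 in withdrawal replicate 2 to 0.16 in vehicle replicate 1. Macula densa markers (4 of 6) ran from -0.13 to 0.17. Among them Ptgs2 ran from 9.47 to 11.92, a range of 2.45 log2, and 99.8% of all genes had a narrower one. The other measured markers of this list, Nos1, Ptger4 and Avpr1a, ranged by 0.36, 0.23 and 0.64. From which cells the Ptgs2 signal came was not tested. In each of these lists 0 genes passed in any comparison. The same held for urothelial markers (6 of 9), with median deviations of -0.38 to 0.14, and immune cell markers (10 of 12), with -0.21 to 0.20.

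**Figure D5:**
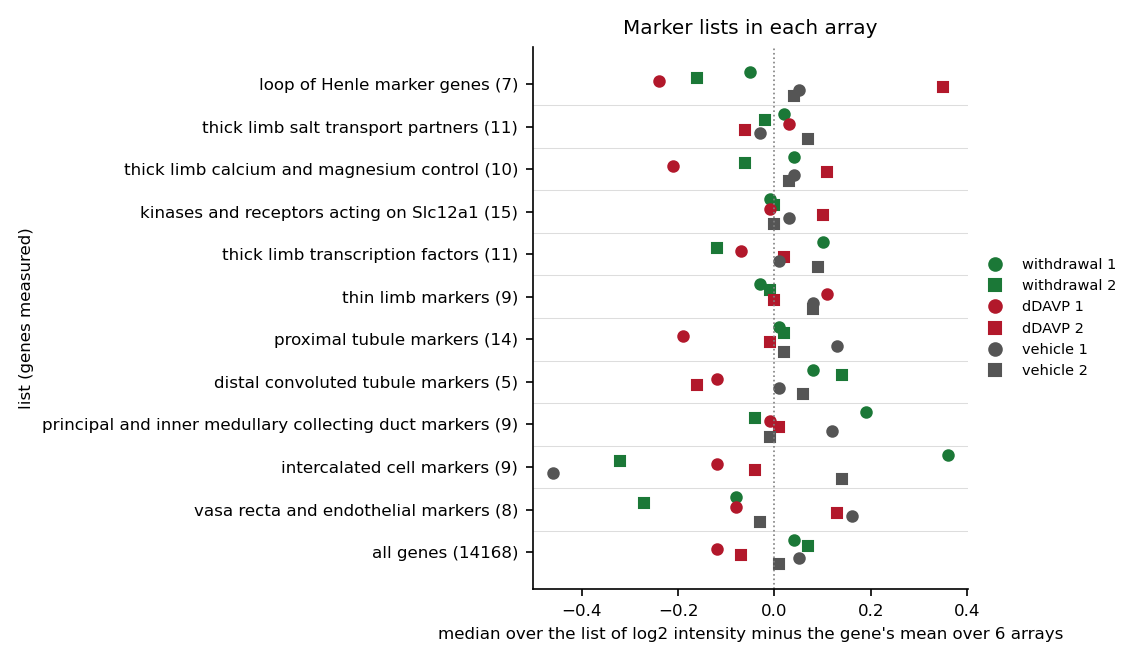
Median over each list (rows, with the number of genes measured) of log2 intensity minus the gene's mean over the 6 arrays, for the withdrawal (green), dDAVP (red) and vehicle (grey) arrays, with circles for replicate 1 and squares for replicate 2. The 7 marker genes reach 0.35 in dDAVP replicate 2, and intercalated cell markers run from -0.46 in vehicle replicate 1 to 0.36 in withdrawal replicate 1.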

How the data were processed

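Kidney inner medulla RNA was read on 6 gene arrays, grouped by the sample labels. RMA is the method that the submitters' processing notes name, and the deposited values are 1 intensity per probe set and array on a linear scale (30.2 to 10778.7). The sources used here give no RMA version and no build. RMA reduces any change shared by most genes. Here log2 was taken. Of 28524 probe sets 14947 had 1 symbol, 318 several and 13259 none in the array's annotation. Entrez numbers of 14916 matched RefSeq GRCr8, which changed 0 symbols. The brightest probe set stood for each of 14168 genes, with no filter. limma 3.58.1 (R 4.3.3) fitted 1 mean per group to all 6 arrays (3 residual and 3.21 prior degrees of freedom), two-sided, with Benjamini-Hochberg adjustment over all genes at 0.05 within each of 3 comparisons. Differences carry the moderated SE. The fit was tested on simulated data for dDAVP minus vehicle over 14168 genes, 50 genes of each size, and recovered 28% at 0.58 log2, 72% at 1 log2, 60% at -1 log2 and 82% at 2 log2. The changed genes were drawn at random from all genes. Noise was independent between genes and arrays, so the likeness of arrays across groups was not simulated. These shares therefore do not give the recovery for Umod, Egf and Slc12a1, whose SE was 0.40, 0.51 and 0.47.

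The genes and lists were chosen with earlier results of these data known. The text names the 7 genes, for those ranging by at least 1 log2 the 5 genes with the nearest profile, any gene of the pathway lists, and from other lists the 4 brightest and the 3 with the widest range. Alternatives were array medians, cyclic loess, a filter on the dimmest 25%, the mean of probe sets, a replicate block, an eBayes trend, fits on 2 groups and left-out arrays. Promoter sequences come from RefSeq, build GRCr8. Detection calls and scan dates were not used here.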

Additional observations from a re-analysis of the deposited data

How the results depend on the processing

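No gene passed in dDAVP minus vehicle or in withdrawal minus dDAVP under any alternative except without dDAVP replicate 1, where 2 genes passed in each, neither of them one of the 7. With any array left out its group has 1 array, which is assumed to vary like the other groups, and where vehicle replicate 1 and dDAVP replicate 2 are left out this holds for both groups. Passing or not passing there rests on the spread of the groups that keep both arrays (with single arrays left out the counts ran from 0 to 2, and in withdrawal minus vehicle from 0 to 0). Of 294 values of the 7 genes under the alternatives 147 were identical by construction, since the alternative leaves the difference as it is. Of the other 147, 34 had the opposite sign, 20 of them with 1 array left out.

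With 1 array left out the differences for dDAVP minus vehicle ran from 0.01 to 1.18 in Umod, -0.50 to 1.21 in Egf, -0.30 to 0.85 in Slc12a1, -0.48 to -0.23 in Tmem72, -0.32 to 0.36 in Cldn16, -0.13 to 0.06 in Cldn10 and -0.33 to 0.19 in Cldn19, with a median of -0.32 to 0.36. For withdrawal minus dDAVP they ran from -1.03 to 0.13 in Umod, -1.57 to 0.13 in Egf, -0.68 to 0.37 in Slc12a1, 0.18 to 0.54 in Tmem72, -0.42 to 0.27 in Cldn16, -0.15 to 0.03 in Cldn10 and -0.41 to 0.11 in Cldn19, with a median of -0.41 to 0.13. For withdrawal minus vehicle they ran from -0.20 to 0.49 in Umod, -0.45 to 0.70 in Slc12a1, -0.17 to 0.19 in Tmem72 and -0.13 to 0.02 in Cldn16, and stayed below 0 in Egf, Cldn10 and Cldn19, with a median of -0.20 to -0.05.

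Without both vehicle replicate 1 and dDAVP replicate 2 the differences for dDAVP minus vehicle were -0.01 in Umod, -0.36 in Egf, -0.50 in Slc12a1 and -0.36 in Cldn16, with a median of -0.36. For withdrawal minus dDAVP they were 0.13 in Umod, 0.13 in Egf, 0.05 in Slc12a1, 0.27 in Cldn16, 0.03 in Cldn10 and 0.11 in Cldn19, and for withdrawal minus vehicle -0.45 in Slc12a1. Array medians turned Cldn10 (0.08) and Cldn19 (0.05) in dDAVP minus vehicle, and loess turned Tmem72 (-0.03) in withdrawal minus vehicle. The cause was not tested.

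The replicate numbers share no stated animal or day. Differences between replicates 1 and 2 correlated across genes at -0.62 between dDAVP and vehicle, -0.11 between dDAVP and withdrawal and 0.00 between vehicle and withdrawal. With the replicate block 0 genes passed in each comparison, and 490, 1518 and 128 had an unadjusted p under 0.05. The number of arrays limits every interval, and signal over background is unknown.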
